A study of Arabidopsis thaliana with 9 samples.

Results

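The 110 probe sets described here share a pattern: the mock-treated plants stood apart from both groups of plants that received dexamethasone (Dex). They were chosen by the deposited ratios of all 9 arrays, among the 17273 probe sets whose ratio exceeded the 40th percentile of 3 or more arrays. For each chosen probe set, the 3 mock values lay all above or all below the other 6 values. The mean log2 ratio also differed by at least 0.8, in the same direction, from mock in both Dex groups. They made up 0.637% of the probe sets kept, with 53 lower and 57 higher in both Dex groups than in mock. The gene EMS1 was left out by name, and its single probe set did not meet the rule. The pattern makes these genes candidates for a response to Dex itself, a reading that the measurements below describe and do not test.

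The arrays measured total RNA from Arabidopsis thaliana inflorescences without flowers past stage 12, collected 4 h after treatment. All plants carried the ga1-3, rga and rgl2 mutations, and the 3 groups of 3 arrays were RGA-GR plants with Dex, nontransgenic plants with Dex, and RGA-GR plants with mock treatment. The design text calls the replicates biologically independent, and used the nontransgenic Dex plants to find effects of the transgene and of Dex itself. There was no nontransgenic mock group. Nontransgenic Dex plants and RGA-GR mock plants therefore differed in both transgene and Dex, and RGA-GR Dex plants and mock plants differed in both RGA-GR activation and Dex. These contributions cannot be told apart in either contrast with mock. The promoter driving RGA-GR, the number of lines and the contents of the mock solution are not given in the sources used here.

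Dexamethasone is a synthetic steroid that binds the mammalian glucocorticoid receptor (GR). Plants have no such receptor, so a protein fused to its hormone-binding domain is held outside the nucleus until Dex is given. RGA is a DELLA protein, a nuclear repressor of growth and flower development that gibberellin removes; the ga1-3 mutation blocks an early step of gibberellin synthesis. A response to the inducer that does not pass through the fused protein is the usual reason for treating plants without the transgene.

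The deposited values were ratios, and for most probe sets the median over the 9 arrays was 1. All levels below are log2 of that ratio. A level of 0 is the probe set's own median where that median ratio was 1, which held for 64 of the 110; in the other 46 the median lay below 0. For this reason values of different genes were not set against each other as amounts. The array medians lay between -0.09 and 0.02. Replicate 3 of RGA-GR Dex, all 3 nontransgenic Dex arrays and replicate 3 of mock had high ratios for the bacterial poly-A spike-in controls. Their median log2 ratios for these controls were 0.00 to 1.25. The other 4 arrays, all transgenic, had low ratios for them, with medians of -3.73 to -3.23. Log2 ratios of 25S ribosomal RNA were 3.29, 4.71 and 2.93 in RGA-GR Dex, -3.58, -4.02 and -4.12 in nontransgenic Dex, and 0.00, 4.15 and -1.01 in mock. The part of the spike-in signal and of ribosomal RNA in the results below was not tested. RGA itself was not analysed here, because no probe set in the annotation used carries its name.

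Mock was the outlying group less often than either other group under the same rule. RGA-GR Dex stood apart for 208 probe sets and nontransgenic Dex for 2590. Without a minimum difference, the mock arrays lay outside all 6 Dex arrays for 469 probe sets (2.72%), above them for 242 (1.40%) and below them for 227 (1.31%). None of the 64 control probe sets met the rule, but at a share of 0.637% an absence among so few says little.

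**Figure D1:**
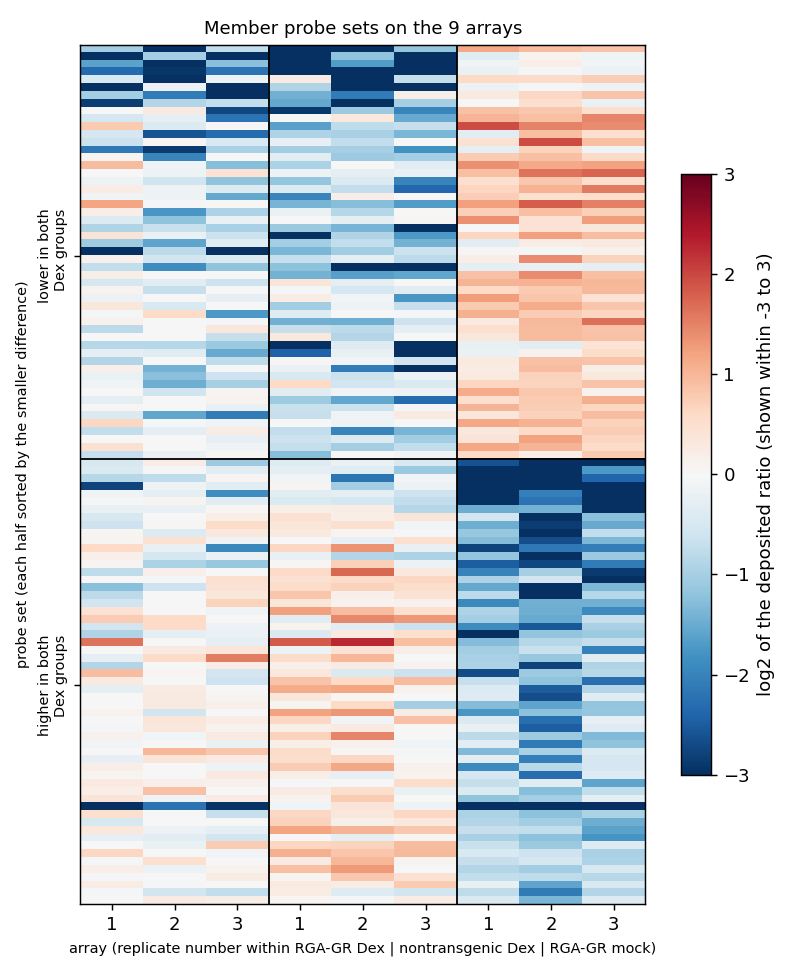
Log2 ratios of the 110 probe sets (rows) on the 9 arrays (columns: RGA-GR Dex, nontransgenic Dex and RGA-GR mock, replicates 1 to 3 each), with colours limited to -3 to 3. The upper block holds the 53 probe sets lower in both Dex groups than in mock and the lower block the 57 higher in both; mock replicate 2 is the lowest mock array in 30 of those 57.

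The annotation gave 1 gene for 61 of the 110 probe sets, several genes for 1 and no gene for 48. Of the 61 genes, 8 had a symbol and 53 only a locus tag, and all were protein-coding except the pseudogene AT2G04980. The lower group held 29 of these genes and the higher group 32. The median difference was -1.20 for RGA-GR Dex minus mock and -1.57 for nontransgenic Dex minus mock in the lower group. In the higher group the medians were 1.40 and 1.78. Over all probe sets kept the medians were 0.08 and -0.07. These sizes follow from the rule and describe the chosen probe sets only. Both contrasts share the mock arrays.

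**Figure D2:**
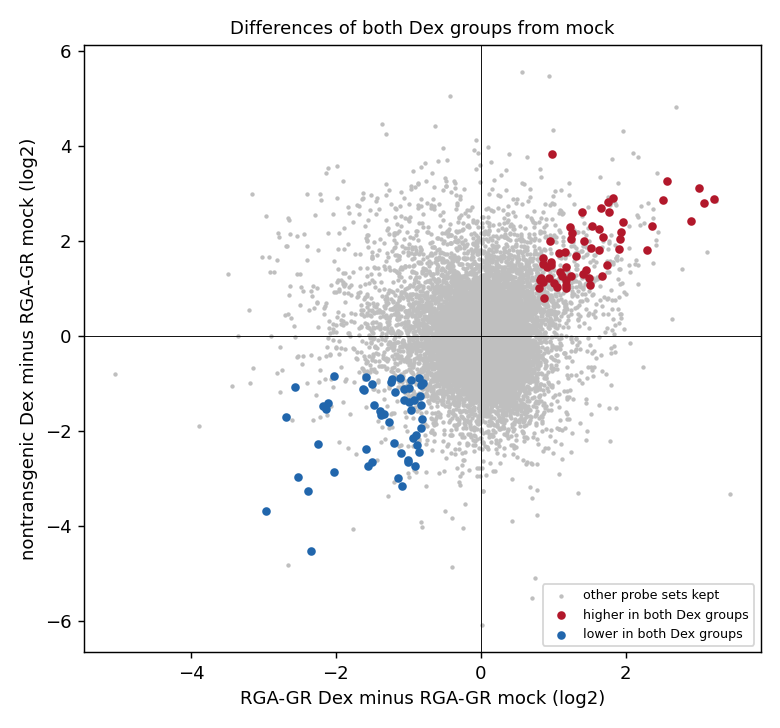
Mean log2 difference from RGA-GR mock in RGA-GR Dex (horizontal axis) and nontransgenic Dex (vertical axis), 1 point per probe set. Red points are the 57 probe sets higher in both Dex groups and blue points the 53 lower in both; grey points are the other probe sets kept. The coloured points lie at least 0.8 from both axes because the rule asks for it.

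Among the genes higher in both Dex groups was LTI30, a dehydrin known for its induction by cold and abscisic acid. LTI30 read 0.44, 0.00 and -0.10 in RGA-GR Dex, 1.23, 0.93 and 0.50 in nontransgenic Dex, and -0.93, -1.45 and -1.91 in mock. The groups did not overlap, and the nearest mock and Dex arrays were 0.84 apart. The difference from mock was 1.54 ± 0.31 (SE, n = 3 arrays a group) for RGA-GR Dex and 2.32 ± 0.31 for nontransgenic Dex. All 3 nontransgenic Dex arrays lay above all 3 RGA-GR Dex arrays; that difference, -0.77 ± 0.31, did not pass the test (limma adjusted p = 0.0851). COR47, another cold-induced dehydrin, differed from mock by 0.20 in RGA-GR Dex and -0.11 in nontransgenic Dex and was not among the 110.

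ZIP9 belongs to a family of zinc and iron transporters. ZIP9 read 0.06, -0.40 and 0.31 in RGA-GR Dex, 0.30, 0.09 and 0.00 in nontransgenic Dex, and -1.13, -3.93 and -0.73 in mock. The 6 Dex arrays stayed close to 0, the gene's median, and mock replicate 2 was far below the other mock arrays. The smaller of the differences from mock was 1.92 with all arrays and 0.92 without that array.

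WRKY6 is a transcription factor of the WRKY family with known roles in senescence and defence. It was chosen for description, like LOJ, UGT71B5 and AT2G16210 below, after its values were seen, because the annotation gives it a symbol or, for AT2G16210, a synonym. WRKY6 read 0.38, -0.10 and 0.25 in RGA-GR Dex, 0.10, 0.76 and 0.00 in nontransgenic Dex, and -1.20, -1.03 and -0.28 in mock. Mock replicate 3 was the nearest to the Dex arrays, 0.17 below the lowest of them. WRKY6 exceeded mock by 1.01 ± 0.31 (SE) for RGA-GR Dex and 1.12 ± 0.31 for nontransgenic Dex (n = 3 arrays a group). Of the 6 genes measured with a WRKY symbol, WRKY6 was the only one with mock outside the Dex arrays, against 2.72% of all probe sets kept. The family was looked at because WRKY6 is a member, so nothing is read from this count.

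AT2G16210 (REM24) encodes a member of the REM family, whose name stands for reproductive meristem. AT2G16210 read -0.48, 0.01 and 0.00 in RGA-GR Dex, 0.68, 0.17 and 0.31 in nontransgenic Dex, and -0.88, -1.03 and -1.47 in mock. The mock arrays were close together and 0.39 below the lowest Dex array. Other REM genes named only by a locus tag, as AT2G16210 is, were not looked up. REM22, the only gene measured with a REM symbol, had mock below all Dex arrays too, by 0.08. Mock lay below all Dex arrays in 1.31% of all probe sets kept. The family was looked at because AT2G16210 is a member, and nothing is read from REM22 alone. The differences of REM22 were 1.24 for RGA-GR Dex and 0.73 for nontransgenic Dex. REM22 missed the minimum of 0.8.

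LOJ is named for its expression at lateral organ junctions. LOJ read 0.92, 0.05 and -0.57 in RGA-GR Dex, 0.31, -0.44 and -0.64 in nontransgenic Dex, and -2.69, -1.10 and -0.84 in mock. Both Dex groups spread widely, and mock replicate 1 was the lowest array. UGT71B5 belongs to the UDP-glycosyltransferases, which attach sugars to small molecules. UGT71B5 read -0.03, -0.55 and -0.75 in RGA-GR Dex, 0.22, -0.38 and -0.56 in nontransgenic Dex, and -0.75, -2.11 and -0.89 in mock. Its lowest Dex and highest mock array were equal to 2 decimals, and without mock replicate 2 its smaller difference was 0.38 against 0.81 with all arrays.

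**Figure D3:**
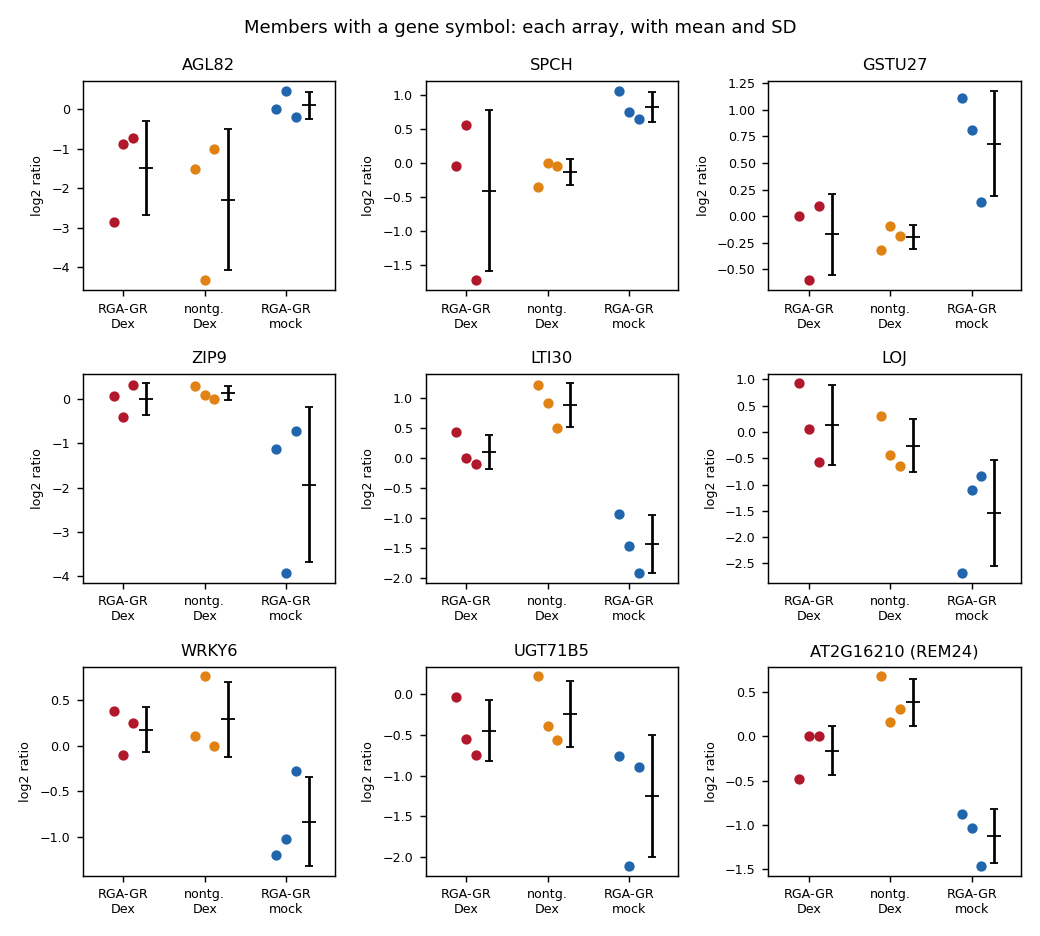
Log2 ratio on each array for the 8 genes with a symbol and for AT2G16210 (REM24), by group (RGA-GR Dex, nontransgenic Dex, RGA-GR mock), with the mean and SD of 3 arrays beside the points and a separate vertical scale for each gene. Mock is the highest group for AGL82, SPCH and GSTU27 and the lowest for the other 6, and ZIP9, LOJ and UGT71B5 each have 1 mock array far below the others.

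Ranked by the smaller of its differences from mock, AT2G37870 came first among the genes higher in both Dex groups. AT2G37870 read -0.49, 0.23 and -1.08 in RGA-GR Dex, -0.38, -0.19 and -0.47 in nontransgenic Dex, and -2.61, -4.01 and -3.77 in mock. All 3 mock arrays were low, and the nearest Dex array was 1.53 above them. The difference from mock was 3.02 ± 0.86 (SE) for RGA-GR Dex and 3.12 ± 0.86 for nontransgenic Dex (n = 3 arrays a group). The gene next to it on chromosome 2 with no protein-coding gene between, AT2G37880, was a member too and is named here for that reason, after its values were seen. AT2G37880 read 0.00, 0.99 and 0.83 in RGA-GR Dex, 0.56, 0.04 and -0.03 in nontransgenic Dex, and -1.31, -0.98 and -0.41 in mock. AT2G37880 exceeded mock by 1.51 for RGA-GR Dex and 1.09 for nontransgenic Dex. Among the members matched to a protein-coding gene, they were the only adjacent pair. The next nearest, AT3G14280 and AT3G14395, had 12 protein-coding genes between them. The 48 members with no gene and the 1 with several could not be placed.

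AT5G03600, AT5G55780, AT1G62690 and AT2G47950 followed AT2G37870 in that ranking. AT5G55780 read -2.77, -0.15 and -0.34 in RGA-GR Dex, 0.08, -1.03 and -0.18 in nontransgenic Dex, and -4.08, -3.76 and -3.13 in mock. AT2G47950 read -0.21, -0.22 and 0.05 in RGA-GR Dex, 0.18, 0.22 and -0.87 in nontransgenic Dex, and -1.48, -1.43 and -4.56 in mock. In AT5G55780 all mock arrays were very low, whereas in AT2G47950 mock replicate 3 was far below the other mock arrays. AT5G17580 read 0.07, 0.45 and -0.12 in RGA-GR Dex, -0.01, -0.25 and 0.47 in nontransgenic Dex, and -1.31, -2.66 and -1.35 in mock, with a gap of 1.05 between the groups. AT1G27620 read 0.09, -0.96 and -1.13 in RGA-GR Dex, 0.04, 0.71 and -0.18 in nontransgenic Dex, and -2.47, -2.74 and -2.10 in mock, with a gap of 0.97. AT1G11540 had mock values of -1.47, -2.85 and -1.51, and its gap was 0.85. These genes have only a locus tag in the annotation used, so no role is given.

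Among the genes lower in both Dex groups, SPCH encodes SPEECHLESS, the transcription factor that starts the stomatal lineage. SPCH read -0.05, 0.56 and -1.73 in RGA-GR Dex, -0.36, 0.00 and -0.04 in nontransgenic Dex, and 1.07, 0.75 and 0.66 in mock. The mock arrays lay close together above the rest, but RGA-GR Dex replicate 2 came within 0.10 of them. The difference from mock was -1.23 ± 0.46 (SE) for RGA-GR Dex and -0.96 ± 0.46 for nontransgenic Dex (n = 3 arrays a group).

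AGL82 belongs to the MADS-box family of transcription factors. AGL82 read -2.86, -0.88 and -0.73 in RGA-GR Dex, -1.53, -4.33 and -1.0 in nontransgenic Dex, and 0.01, 0.47 and -0.20 in mock. The median ratio over the 9 arrays was 0.55, and each Dex group had 1 array far below the others. As in all members of the lower group, the rule puts mock above the median. The difference from mock was -1.58 ± 1.05 (SE) for RGA-GR Dex and -2.38 ± 1.05 for nontransgenic Dex.

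GSTU27 is a tau-class glutathione transferase, an enzyme family that couples glutathione to foreign compounds. GSTU27 read 0.00, -0.60 and 0.09 in RGA-GR Dex, -0.32, -0.09 and -0.18 in nontransgenic Dex, and 1.11, 0.81 and 0.13 in mock. Mock replicate 3 was only 0.04 above the highest Dex array. GSTU27 differed from mock by -0.85 for RGA-GR Dex and -0.88 for nontransgenic Dex. Of 8 genes measured with a GSTU symbol, mock lay outside the Dex arrays in GSTU27 and GSTU18, against 2.72% of all probe sets kept. The family was looked at because GSTU27 is a member, so its place in this count was certain and nothing is read from the count. GSTU18 differed from mock by -0.42 in RGA-GR Dex and -0.95 in nontransgenic Dex.

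The other 26 genes lower in both Dex groups had only locus tags. AT4G05040 read -3.46, -1.01 and -3.50 in RGA-GR Dex, -4.60, -1.20 and -3.49 in nontransgenic Dex, and -0.36, 0.10 and -0.13 in mock. AT3G58450 read -1.61, -4.29 and -1.25 in RGA-GR Dex, -4.42, -1.67 and -3.66 in nontransgenic Dex, and -0.13, 0.20 and -0.08 in mock. By the rule both genes were lower on all 6 Dex arrays than on any mock array, with gaps of 0.66 and 1.12. Their median ratios over the 9 arrays were 0.44 and 0.33. The filter asks for 3 arrays, so such genes could pass it through the 3 mock arrays alone. AT5G62730 read 0.00, -0.16 and 0.44 in RGA-GR Dex, -0.15, -0.28 and -0.20 in nontransgenic Dex, and 0.91, 1.62 and 1.75 in mock. AT5G44380 read -0.54, -0.28 and -2.22 in RGA-GR Dex, 0.00, 0.31 and -1.51 in nontransgenic Dex, and 1.03, 0.89 and 1.45 in mock. AT1G29660 read 0.96, -0.12 and -1.27 in RGA-GR Dex, -0.96, 0.00 and -0.32 in nontransgenic Dex, and 1.36, 1.15 and 1.21 in mock. In AT5G62730 and AT5G44380 mock stood clear of the Dex arrays, while in AT1G29660 RGA-GR Dex replicate 1 came within 0.19 of mock. AT2G10940 read 0.09, -0.69 and 0.00 in RGA-GR Dex, -0.06, -0.52 and -0.31 in nontransgenic Dex, and 0.60, 0.78 and 0.98 in mock. AT1G54820 read 0.05, 0.00 and -0.22 in RGA-GR Dex, -0.68, -0.64 and -0.06 in nontransgenic Dex, and 1.02, 0.73 and 0.61 in mock. Its groups were 0.57 apart and each group was compact.

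The lower and higher groups differed in where the spread between arrays lay, which the rule does not set directly. The 3 mock arrays spanned a median of 0.55 in the lower group and 1.35 in the higher group, against 0.61 over all probe sets kept. The 6 Dex arrays spanned a median of 2.09 in the lower group and 1.16 in the higher group, against 1.15 over all probe sets kept. The wide side was in each case the side with the low values. Mock spanned over 2 in 14 members, all of them in the higher group, and the Dex arrays spanned over 2 in 29 of the lower and 6 of the higher group. Only 11 members had both the mock and the Dex arrays within 1, among them AT5G62730, AT2G10940, AT4G14820, GSTU27, AT1G54820 and AT5G18840 in the lower group and WRKY6 and AT3G58200 in the higher group.

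Low ratios were frequent. The median over the 9 arrays was under 1 in 46 of the 110 probe sets (41.8%), against 12.8% of all probe sets kept, and what divided such rows is not given in the sources used here. All 13 members whose smaller difference from mock was at least 2 were of this kind, AT2G37870, AT4G05040 and AT3G58450 among them. The 64 members with a median of 1 reached at most 1.96. The filter asks for 3 arrays, so probe sets of the lower group could pass it through the mock arrays alone. How far the filter and the rule favour low medians was not tested.

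The gap between the nearest mock and Dex arrays had a median of 0.34 in the lower group and 0.32 in the higher group. It was at least 0.5 in 31 members and under 0.1 in 22. At the minimum difference of 0.8, the members just inside were AT3G51180 (0.80), AT5G55450 (0.80) and AT3G58200 (0.81), and 3 probe sets with no gene name lay just outside at 0.79 each.

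The mock arrays did not weigh equally. Mock replicate 2 was the mock array farthest from the Dex arrays in 55 of the 110 members, mock replicate 3 in 31 and mock replicate 1 in 24. Without mock replicate 2, 85 of the 110 kept a difference of at least 0.8 from both Dex groups, 44 of 53 in the lower group and 41 of 57 in the higher group. Without any other single array, between 96 and 107 did. AT1G22810 read -1.17, -5.20 and -1.11 in mock, and its smaller difference was 0.46 without mock replicate 2 and 1.81 with it. AT4G04190 read -0.58, -4.38 and -1.24 in mock, and its smaller difference was 0.81 without that array and 1.96 with it. AT2G37870, AT5G55780 and LTI30 depended little on it, with 2.74, 2.52 and 1.53 without that array.

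**Figure D4:**
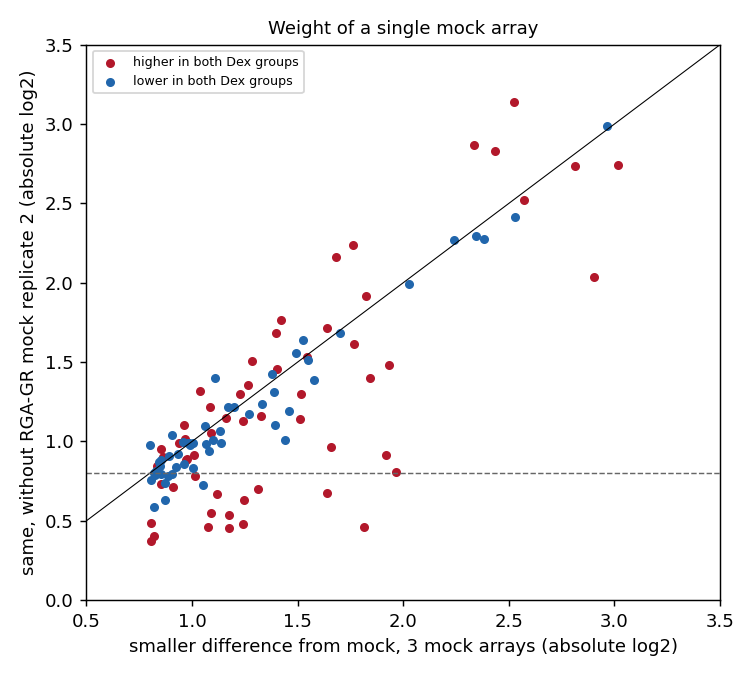
Smaller of the absolute log2 differences of the Dex groups from mock for each of the 110 probe sets, with all 3 mock arrays (horizontal axis) and without mock replicate 2 (vertical axis). The solid line marks equal values and the dashed line the minimum of 0.8; 25 points fall below it, 16 of them higher (red) and 9 lower (blue) in both Dex groups.

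Arrays with the same replicate number in RGA-GR Dex and mock deviated together, so the members' differences were also taken within each number. The median difference of RGA-GR Dex from mock in replicates 1, 2 and 3 was -0.85, -1.41 and -1.41 in the lower group and 1.04, 1.75 and 1.11 in the higher group. Among arrays with low spike-in ratios, RGA-GR Dex differed from mock by a median of -1.13 in the lower and 1.42 in the higher group. With high spike-in ratios, RGA-GR Dex and mock had only replicate 3 each, so their medians, -1.41 and 1.11, repeat those of replicate 3. Nontransgenic Dex differed from that single mock array by medians of -1.60 and 1.48. The rule fixes the direction of all these values.

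In the fit over all 17273 probe sets (limma with Benjamini-Hochberg adjustment), none passed an adjusted p of 0.05 between RGA-GR Dex and mock (0.00%), so none of the 110 did. At an unadjusted p under 0.05, 91 of the 110 did, against 8.83% of all. The lowest adjusted p of the whole table in that contrast, 0.143, belonged to a member whose probe set has no gene name. Its mock values, 1.01, 1.05 and 1.01, lay within 0.04 of each other. Between nontransgenic Dex and mock 56 of the 110 passed, against 15.3% of all, and 98 did at an unadjusted p under 0.05, against 32.9% of all. The number over all probe sets, 2635, was 0 without mock replicate 2, 1123 under quantile normalization, 1412 with the spike-in signal as a block and 4927 with same-numbered transgenic arrays as a block. Since both contrasts chose the members, nothing is read from these counts.

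The contrast of RGA-GR Dex with nontransgenic Dex was no part of the rule, although the rule keeps both groups on the same side of mock. It passed the test in 9 of the 110 (8.18%), against 27.0% of all probe sets kept, and 19 passed at an unadjusted p under 0.05, against 40.4% of all. With the replicate block 16 of the 110 passed. In 2590 probe sets nontransgenic Dex stood apart from the other groups. Most of these are not members, though some, such as AT5G55450, met both rules. Since the rule bears on this contrast in that way, the lower share is not shown to be particular to these genes. Of the 110, 6 passed with RGA-GR Dex higher, against 17.5% of all probe sets kept, and these 6 belonged to the lower group. Another 3 of the 110 passed with RGA-GR Dex lower, against 9.44% of all probe sets kept, and belonged to the higher group. Calls among all probe sets kept also leaned to RGA-GR Dex higher, with 3029 of 4660 higher and 1631 lower. By the rule both Dex groups lay on the same side of mock. The directions of the 9 calls therefore mean that the RGA-GR Dex mean was the nearer to mock in all 9. The matching share among the 4660 calls was not counted. Over all 110 the RGA-GR Dex mean was the nearer in 78 (70.9%), against 67.2% of all probe sets kept.

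AT5G55450 and AT2G03310 were the named genes among the 9, and both had the higher level in RGA-GR Dex. AT5G55450 read 0.46, 0.00 and -0.14 in RGA-GR Dex, -0.71, -1.02 and -0.74 in nontransgenic Dex, and 1.17, 1.01 and 0.56 in mock. The 3 groups formed separate steps with RGA-GR Dex between the other two, and RGA-GR Dex exceeded nontransgenic Dex by 0.93 ± 0.22 (SE, limma adjusted p = 0.0135). AT2G03310 read 0.13, 0.00 and -0.03 in RGA-GR Dex, -1.44, -1.47 and -0.63 in nontransgenic Dex, and 0.27, 0.98 and 1.64 in mock. RGA-GR Dex again lay between, 1.21 ± 0.34 above nontransgenic Dex (limma adjusted p = 0.0265). Both calls were lost under quantile normalization, with differences of 0.82 for AT5G55450 and 1.13 for AT2G03310. Both were lost without nontransgenic Dex replicate 2 too, with 0.84 and 1.07. That of AT5G55450 was also lost with the spike-in signal as a block (0.63), and that of AT2G03310 after array medians were subtracted (1.02), without nontransgenic Dex replicate 1 (1.08) and without any single RGA-GR Dex array (1.17 to 1.25).

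The difference between the Dex groups exceeded the smaller of the differences from mock in 16 members, 14 of them in the lower group. It did so in 82.4% of all probe sets kept. The rule, which asks for a minimum difference from mock, makes this rare here. AT1G75300 had the largest such difference in size and is named after its values were seen. AT1G75300 read -3.35, -2.20 and -2.93 in RGA-GR Dex, -0.13, 0.38 and -0.15 in nontransgenic Dex, and -3.81, -3.99 and -3.63 in mock. RGA-GR Dex lay close to mock and nontransgenic Dex far above both. RGA-GR Dex minus nontransgenic Dex was -2.86 ± 0.99 (SE, limma adjusted p = 0.0553), which missed the threshold.

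None of the 61 members with 1 gene was on any of 15 gene lists for hormones, stress, detoxification, the clock and floral cell types. The lists hold 176 genes, of which 36 were measured under a gene name, in 13 lists; no gene of the ethylene and brassinosteroid lists was. The 48 members with no gene and the 1 with several could not be looked up, and with 36 genes measured and 0.637% of probe sets chosen, an absence says little. Of those 36, OPCL1, an enzyme of jasmonate synthesis, was the only one with mock outside the Dex arrays, by 0.03, with differences of 0.29 for RGA-GR Dex and 1.39 for nontransgenic Dex. None of the 36 passed the test between RGA-GR Dex and mock, where none of all 17273 probe sets did. Of the 4 detoxification genes, GSTU25 differed from mock by -0.06 in RGA-GR Dex and 2.44 in nontransgenic Dex, and only the second passed (limma adjusted p = 0.0317). UGT73B4 had the largest difference for RGA-GR Dex, 1.42, and 1.24 for nontransgenic Dex. UGT73B4 read 1.23, 1.31 and 0.00 in RGA-GR Dex, 0.99, 1.82 and -0.80 in nontransgenic Dex, and -0.87, -0.04 and -0.81 in mock. The RGA-GR Dex arrays lay above all mock arrays, the nontransgenic Dex arrays overlapped with mock, and neither difference passed the test.

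For the list of gibberellin perception and signalling, 7 genes were measured, with medians of 0.37 for RGA-GR Dex minus mock and -0.20 for nontransgenic Dex minus mock. GID1B, a gibberellin receptor, differed from mock by 1.03 and 0.21 in these contrasts. Of the 7, 5 passed the test between the Dex groups, all with RGA-GR Dex higher, against 17.5% of all probe sets. The 2 abscisic acid and cold genes had medians of 0.00 and 0.62. COR15A, a cold-induced chloroplast protein, differed from mock by -0.20 in RGA-GR Dex and 1.35 in nontransgenic Dex, unlike LTI30, which was higher in both. The 2 jasmonate genes had medians of -0.41 and 1.11, and the 2 touch and wounding genes 0.72 and 0.95.

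Lists of cell type markers were read in the same way. The 7 pollen genes had medians of -0.40 for RGA-GR Dex minus mock and 0.64 for nontransgenic Dex minus mock, and the 5 tapetum genes -0.31 and 0.22. Of the pollen genes, 1 rose in nontransgenic Dex against mock (6.19% of all probe sets rose), and 1 tapetum gene did. The 2 genes of photosynthetic tissue had medians of -0.10 and -1.03, and both fell in nontransgenic Dex against mock (9.07% of all fell). SPL, which starts sporogenous cells and was the only floral organ gene measured, differed by -0.09 and -0.50. The single measured genes of the other lists had differences of 1.75 and 0.18 for defence, 0.42 and 0.35 for heat shock, 0.37 and -0.16 for the clock, and -0.17 and -0.20 for the cell cycle. In these bulk samples, fewer cells of a type and less RNA per cell cannot be told apart.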

How the data were processed

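In all, 9 arrays, 3 for each of 3 groups, were analysed, with groups and replicate numbers taken from the sample titles. The authors deposited 1 table of ratios per probe set, and GCOS is named per the submitters' processing notes; background correction and divisor are not given in the sources used here. The smallest deposited ratio was 0.01. Ratios were turned into log2 values without an offset and without further normalization. Of 22746 non-control probe sets, 17273 passed the filter. Depth does not apply to arrays, and their number limits the precision.

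A model with 3 group means was fitted to all 17273 (limma 3.58.1 lmFit and eBayes with trend, R 4.3.3, 6 residual degrees of freedom, two-sided, Benjamini-Hochberg threshold 0.05), and was tested on simulated data. An exact permutation test of 3 against 3 arrays cannot go below p = 0.1, so no single gene was tested that way. P-values weigh the group differences against the spread between arrays within groups. The main model had no term for the replicate number.

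The members, the gene lists and families were chosen with earlier results of these data known. Genes were named from among all members with 1 gene in the lower group, the 15 with the largest smaller difference in the higher group, the members with the lowest adjusted p between the Dex groups, those next to the minimum difference, and up to 4 genes a list; not all of them are named, and exceptions are stated where they occur. Probe sets were named from the platform annotation (13513 with 1 gene, 503 with several, 8730 with none), and 13436 matched the TAIR10.1 RefSeq gene table, used for names and neighbours only. Promoter sequences were not used here.

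Same-numbered RGA-GR Dex and mock arrays deviated together (r = 0.33, 0.12 and 0.33 over all probe sets), which pairs them from the data, not from the labels. The nontransgenic numbers showed no such pairing (r between -0.04 and 0.04). Alternatives were another scaling, an offset, other filters, other variance moderation, a replicate block, a spike-in block, another minimum difference and leaving out each array.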

Additional observations from a re-analysis of the deposited data

How the results depend on the processing

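The count of 110 members became 215 with no filter and 123 to 337 when an array was left out, which loosens the requirement of separate groups; 333 and 337 came without mock replicates 1 and 3, and 169, 185 and 173 without mock replicate 2 and RGA-GR Dex replicates 1 and 2. Quantile normalization gave 147 members, of which 104 were among the 110, and subtracting array medians gave 106, sharing 93. An offset of 0.0894 before log2 left 89.

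Between RGA-GR Dex and mock, 1 probe set passed without the variance trend and 0 to 15 when an array was left out, with 15 without RGA-GR Dex replicate 1. Between nontransgenic Dex and mock, the 2635 calls became 1123 under quantile normalization, 1412 with the spike-in block, 4927 with the replicate block and 0 to 2773 when an array was left out, with 0 without mock replicate 2 and 1116 to 1357 without mock replicate 1 or any nontransgenic Dex array. Between the Dex groups, the 4660 calls became 2906 under quantile normalization and 1874 to 4881 when an array was left out; the lowest were 1874 without RGA-GR Dex replicate 2, and 2961 and 3099 without nontransgenic Dex replicates 1 and 2. The 9 members called there became 4 under quantile normalization, 16 with the replicate block and 5 to 11 when an array was left out, with 5 without RGA-GR Dex replicate 2. The causes were not tested.

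Subtracting array medians changed the split between the Dex groups to 1751 higher and 2253 lower, against 3029 and 1631, and that between nontransgenic Dex and mock to 1412 and 839, against 1069 and 1566. It turned the sign of the median difference over all probe sets, to -0.05 between the Dex groups, against 0.14, and to 0.07 between nontransgenic Dex and mock, against -0.07. AT5G55450 and AT2G03310 kept their direction between the Dex groups under every alternative run.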
